A study of Homo sapiens with 16 samples.

Results

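U266-HR cells, a hypoxia-resistant subline of the human myeloma line U266, were compared with their parental cells. The difference of each gene rests on 4 of the 16 arrays of the series, chosen by their labels. These are 2 arrays of U266-HR cells cultured at 1% oxygen for 24 hours and 2 arrays of parental U266 cells cultured at 20% oxygen for 24 hours. U266 is an established line derived from multiple myeloma, a cancer of antibody-secreting plasma cells. The same pair of conditions was measured in RPMI8226, KMS-11 and IM-9, which show where the response of U266 differs. Their arrays also enter the estimate of the spread and the filter on dim signals. All cells were seeded at the same density, and total RNA was hybridised to Affymetrix gene arrays. Every U266-HR array comes from 1% oxygen and every parental array from 20% oxygen, so the effect of resistance and that of oxygen cannot be told apart. The labels do not say how resistance was obtained, whether U266-HR is 1 clone, or from how many cultures its arrays were made. All p-values below thus reflect the spread among arrays alone, which may be technical. The arrays hold 18417 genes with at least 1 probe set that carries their symbol alone; 12639 of these passed the filter on dim signals and were tested, and 5778 were not.

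Cells sense low oxygen mainly through hypoxia-inducible factors (HIF), whose alpha subunits are hydroxylated by EGLN enzymes and degraded while oxygen is present. When oxygen falls, HIF accumulates as protein and raises the transcription of genes for glucose uptake, glycolysis, mitophagy, collagen hydroxylation and angiogenesis. Myeloma cells live in the bone marrow, where oxygen is low, and depend on a large secretory apparatus for immunoglobulin. These statements are background and not results.

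The arrays carried the features of the labelled line. CCND1, the cyclin that a rearrangement activates in U266, was at 10.67 and 10.61 on the log2 scale in the U266-HR arrays, against 10.74 and 10.74 in the U266 arrays, and it averaged at most 7.06 in the other lines. IL6, which U266 is known to secrete, was at 6.88 and 7.39 in U266-HR, against 7.71 and 7.67 in U266. Of 9 plasma cell markers, 8 lay above the filter on dim signals, the median of the whole table at a log2 value of 6.27, in both groups, among them SDC1, TNFRSF17, XBP1 and JCHAIN. CD38 was the exception, with a mean of 5.72 in U266-HR and 5.96 in U266. Of 6 markers each, 1 myeloid, 1 T and NK cell and 1 stromal or epithelial marker lay above the filter in each group, and CD14, LYZ, CD3E, DCN and EPCAM lay below it. Arrays of the same group correlated at r = 0.997 in U266-HR and 0.997 in U266, U266-HR with U266 arrays at 0.979, and U266 with arrays of other lines at 0.717 to 0.807.

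Most genes differed little between U266-HR and U266. The median change was -0.01 on the log2 scale, and 5% of genes lay below -0.35 and 5% above 0.43. By limma with Benjamini-Hochberg adjustment over all 12639 genes and a threshold of 0.05, 1223 genes (9.68%) were higher in U266-HR cells and 1064 (8.42%) were lower. Without U266-HR array 1 or 2, 605 and 640 genes were lower, and without U266 array 1 or 2, 553 and 704; rises numbered 820 to 908 with 1 array left out. Of these 2287 genes, 1686 differed by less than 1.5-fold, 371 by 1.5-fold to 2-fold and 230 by at least 2-fold. Large changes were mostly rises: 173 genes (1.37%) rose and 57 (0.451%) fell by at least 2-fold, and 42 rose and 1 fell by at least 4-fold. The median size of a called change was 0.40 on the log2 scale and the smallest was 0.17, with a median standard error over all genes of 0.09. The largest change that did not pass was 0.74. Being called depended on level: 13.5% of genes with a mean below 7 were called, 20.8% of those from 7 to 9, 21.1% of those from 9 to 11 and 14.2% of those above 11. The filter was passed by 51 genes through the U266-HR arrays alone, of which 37 were called higher, and by 53 through the U266 arrays alone, of which 30 were called lower; for these genes a difference between the groups was built in. A further 1742 tested genes lay above the filter in 0 of the 4 U266 arrays and passed it through other lines. Of these, 158 were called. With 2 arrays against 2, arrays that do not overlap say little. Of all genes, 29.2% had both U266-HR arrays above both U266 arrays and 32.8% had both below.

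**Figure D1:**
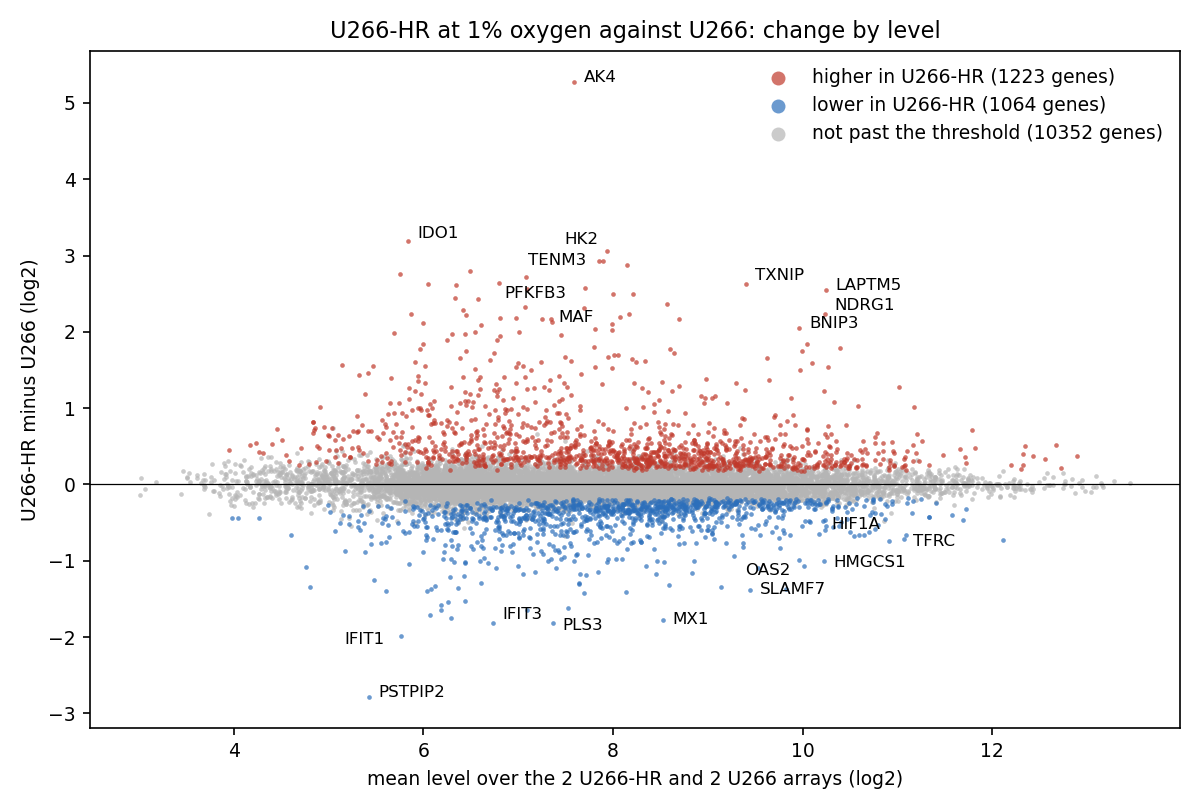
Change of each tested gene (U266-HR minus U266, log2) against its mean level over the 4 U266 arrays (log2); red points were called higher in U266-HR, blue points lower, grey points did not pass. AK4 stands alone at 5.28, and the 173 rises of at least 2-fold outnumber the 57 falls of that size.

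The largest rise was that of AK4, a mitochondrial adenylate kinase that balances adenine nucleotides. AK4 was at 10.21 and 10.25 in the U266-HR arrays, against 5.17 and 4.72 in the U266 arrays. It rose by 5.28 ± 0.11 on the log2 scale (38.9-fold, adjusted p = 2.28e-11; ± is the standard error of the limma fit throughout, n = 2 arrays per group). IDO1, which degrades tryptophan, was at 7.51 and 7.34 in the U266-HR arrays, against 4.44 and 4.04 in the U266 arrays, and rose by 3.19 ± 0.11 (adjusted p = 8.50e-10). The U266 values of AK4 and IDO1 lay below the filter. HK2, the inducible hexokinase that opens glycolysis, was at 9.48 and 9.44 in the U266-HR arrays, against 6.14 and 6.67 in the U266 arrays, and rose by 3.06 ± 0.12 (adjusted p = 1.96e-09). TXNIP, an inhibitor of thioredoxin and of glucose uptake, was at 10.71 and 10.72 in the U266-HR arrays, against 8.12 and 8.06 in the U266 arrays. The arrays of each group were nearly identical, and TXNIP rose by 2.62 ± 0.07 (adjusted p = 4.62e-11). PFKFB3, which makes the activator of phosphofructokinase, rose by 2.57 ± 0.07, with arrays at 9.02 and 8.96 in U266-HR, against 6.49 and 6.35 in U266.

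The other 10 of the 15 largest rises were of genes not usually counted as hypoxia genes. They were SLA (2.93), an adaptor that dampens antigen receptor signalling, TENM3 (2.92), a teneurin adhesion protein of neurons, ZNF730 (2.87), a zinc finger gene, and SSX1 (2.79), a cancer-testis gene. MUSK (2.76), the receptor kinase of the neuromuscular junction, CNIH3 (2.72), an auxiliary subunit of glutamate receptors, DOCK10 (2.64), a guanine nucleotide exchange factor, IQGAP2 (2.63), a cytoskeletal scaffold, BCHE (2.62), butyrylcholinesterase, and CCN4 (2.56), a matricellular protein, completed the set. TENM3 was at 9.29 and 9.34 in the U266-HR arrays, against 6.37 and 6.40 in the U266 arrays, and MUSK at 7.23 and 7.03 in U266-HR, against 4.34 and 4.40 in U266. Both genes were thus below or near the filter in U266 and clearly above it in U266-HR. SSX1 had the widest spread of the 15, with 8.32 and 7.45 in U266-HR, against 5.07 and 5.12 in U266, and still passed (adjusted p = 3.62e-06).

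The largest fall was that of PSTPIP2, an adaptor that links membranes to actin. PSTPIP2 was at 4.09 and 3.98 in the U266-HR arrays, against 6.79 and 6.85 in the U266 arrays, and fell by 2.79 ± 0.10 (adjusted p = 1.31e-09), to values well under the filter in U266-HR. Next came IFIT1 (-1.99), PLS3 (-1.82), an actin-bundling protein, IFIT3 (-1.81) and MX1 (-1.77). IFIT1, IFIT3 and MX1 are antiviral effectors induced by interferon. PLS3 was at 6.36 and 6.54 in the U266-HR arrays, against 8.31 and 8.24 in the U266 arrays. The remaining 10 of the 15 largest falls were ALLC (-1.75), CGA (-1.71), the common alpha subunit of glycoprotein hormones, RGS7 (-1.64), a regulator of G protein signalling, TEX9 (-1.64), SCML1 (-1.62), KIF16B (-1.58), an endosomal kinesin, WNK3 (-1.55), a kinase that regulates ion transport, PALMD (-1.53), LIMA1 (-1.43), an actin-binding protein, and ADD2 (-1.41), an adducin of the membrane skeleton. KIF16B lies on chromosome 20, in a stretch of genes that is described further on.

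Among genes with a mean of at least 10, LAPTM5, a lysosomal protein that turns over antigen receptors, rose most. It was at 11.52 and 11.51 in the U266-HR arrays, against 8.99 and 8.95 in the U266 arrays, a rise of 2.54 ± 0.06 (adjusted p = 2.69e-11). NDRG1, a stress protein induced by hypoxia, was at 11.36 and 11.34 in U266-HR, against 9.13 and 9.10 in U266, LGMN, the lysosomal protease legumain, at 10.98 and 10.96 in U266-HR, against 9.12 and 9.14 in U266, and EHD3, an endosomal membrane protein, at 11.34 and 11.22 in U266-HR, against 9.56 and 9.43 in U266. The largest changes named here and above were taken only from called genes without overlap between the groups. Their separation was thus part of the choice. H2BC14, a histone H2B gene, rose by 1.59 ± 0.06, and BNIP3L, a mitophagy receptor, by 1.54 ± 0.08. Falls of abundant genes were smaller. OAS2, which senses double-stranded RNA, fell by 1.07 ± 0.10, HMGCS1, an enzyme of cholesterol synthesis, by 1.00 ± 0.08, and KCNK1, a potassium channel, by 0.74 ± 0.06. CCL3, a chemokine by which myeloma cells act on bone, was at 11.76 and 11.75 in U266-HR, against 12.51 and 12.44 in U266. TFRC, the transferrin receptor that brings iron into the cell, was at 10.72 and 10.70 in U266-HR, against 11.44 and 11.40 in U266, and OAS1 fell by 0.68 ± 0.07.

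Most tested genes of the HIF response rose. Members of this and the later lists were chosen with earlier results of these data known. An excess over all genes may thus be partly built in. Of 46 tested genes of a list of HIF targets and oxygen sensors, 35 rose and 1 fell, against 9.68% of all genes higher and 8.42% lower, and their median change was 0.82 against -0.01 over all genes. With 1 array left out, 34 or 35 of them rose. EGLN3, the oxygen-sensing hydroxylase that HIF itself induces, was at 8.26 and 8.21 in the U266-HR arrays, against 5.91 and 5.90 in the U266 arrays, and rose by 2.33 ± 0.10 (adjusted p = 3.30e-09). EGLN1, the main hydroxylase of HIF in most cells, rose by 1.29 ± 0.08. HIF1A, the gene of the HIF subunit, went the other way. HIF1A was at 10.26 and 10.27 in the U266-HR arrays, against 10.96 and 10.91 in the U266 arrays, and fell by 0.67 ± 0.09 (adjusted p = 0.000211); it was the only list member that fell. ARNT, the partner subunit, was at -0.04 ± 0.07 (adjusted p = 0.811), EPAS1, another alpha subunit, at 0.04 ± 0.11 (adjusted p = 0.875), and VHL, the ligase that marks HIF for degradation, at -0.10 ± 0.06 (adjusted p = 0.308). None of these 3 passed.

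Within that list, the mitophagy receptor BNIP3 was at 10.99 and 10.99 in the U266-HR arrays, against 8.95 and 8.93 in the U266 arrays, and rose by 2.05 ± 0.07 (adjusted p = 3.09e-10). The 2 arrays of each group were nearly identical. PDK1, a kinase that inhibits pyruvate dehydrogenase, was at 10.85 and 10.82 in U266-HR, against 9.67 and 9.56 in U266. PDK3 of the same family rose by 1.62 ± 0.09. The hydroxylases that mature collagen rose together. P4HA1 rose by 1.65 ± 0.08, PLOD2 by 1.74 ± 0.09, PLOD1 by 0.89 ± 0.08 and P4HA2 by 0.82 ± 0.06. KDM3A, a histone demethylase that uses oxygen, was at 9.95 and 9.98 in the U266-HR arrays, against 8.63 and 8.63 in the U266 arrays, and rose by 1.33 ± 0.08 (adjusted p = 1.63e-07). ADM, the vasodilator peptide adrenomedullin, rose by 0.96 ± 0.10, and VEGFA, the angiogenic factor, by 0.55 ± 0.06. CXCR4, the receptor that homes plasma cells to marrow, rose by 0.52 ± 0.09, and VLDLR, a lipoprotein receptor, by 0.81 ± 0.08. Of the genes without a call, SLC2A3, a neuronal type glucose transporter that is often a HIF target, was at -0.16 ± 0.11 (adjusted p = 0.388). The effect in U266 exceeded the mean effect of the other 3 lines for 21 of the 46 genes and was below it for 4, by the limma test of that difference, which called 15% of all genes higher and 9.67% lower. The median effect of the list in the other lines was 0.53.

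HIF binds short sequences with the core ACGTG or GCGTG. The promoter windows of AK4, the largest rise, and BNIP3, a HIF target with nearly identical arrays in each group, are shown from RefSeq (GRCh38.p14), 250 bases before to 50 bases after the annotated start. They are the first of 4 windows of AK4 (chr1:65147302-65147601, plus strand) and the only window of BNIP3 (chr10:131981874-131982173, minus strand), read on the strand of the gene. Capitals mark each match to the core on either strand; CACGTG matches on both strands and is counted 2 times. AK4 held 3 matches and BNIP3 6.
AK4: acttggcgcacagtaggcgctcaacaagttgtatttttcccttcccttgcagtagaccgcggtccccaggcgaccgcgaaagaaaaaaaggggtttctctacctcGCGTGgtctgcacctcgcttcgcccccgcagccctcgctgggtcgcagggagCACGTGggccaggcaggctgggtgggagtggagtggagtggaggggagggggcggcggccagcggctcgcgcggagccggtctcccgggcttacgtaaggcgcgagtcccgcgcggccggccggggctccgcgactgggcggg
BNIP3: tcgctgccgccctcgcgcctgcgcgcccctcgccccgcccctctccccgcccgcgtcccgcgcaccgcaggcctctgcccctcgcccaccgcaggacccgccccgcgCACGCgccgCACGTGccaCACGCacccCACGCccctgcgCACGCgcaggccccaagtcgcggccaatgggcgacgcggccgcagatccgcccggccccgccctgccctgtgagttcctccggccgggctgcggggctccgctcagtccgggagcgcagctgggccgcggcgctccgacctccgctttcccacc
Of 42 windows of the HIF list genes that rose, 36 (85.7%) held at least 1 such core. The core is common: it was in 48.4% of all 35116 RefSeq windows and in 60.0% of the 14542 windows of genes tested. A match is a description of the sequence and not a binding site.

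Many glycolysis genes rose, HK2, PFKFB3, SLC2A1 and PFKFB4 by more than 2 on the log2 scale. HK2 and PFKFB3 also stand in the HIF list. Of the tested genes 58.6% rose and 6.9% fell, against 9.68% and 8.42% of all genes. Of 29 tested genes, 17 rose and 2 fell (0 and 0 without U266-HR array 1 or 2, and 1 and 0 without U266 array 1 or 2), with a median of 0.35. SLC2A1, the main glucose transporter of dividing cells, was at 9.38 and 9.20 in the U266-HR arrays, against 6.82 and 7.30 in the U266 arrays, and rose by 2.23 ± 0.12 (adjusted p = 3.25e-08). PFKFB4, another enzyme that sets the activator of phosphofructokinase, was at 9.17 and 9.17 in U266-HR, against 6.89 and 7.06 in U266. TPI1, which interconverts the triose phosphates, rose by 1.03 ± 0.05. ENO2, ALDOC and PFKP, isoforms usual in brain or platelets, rose by 1.16, 1.13 and 1.07. Of the widely expressed isoforms, ENO1 rose by 0.37, ALDOA by 0.33, PFKL by 0.27 and LDHA by 0.52. GAPDH was at 0.05 ± 0.06 (adjusted p = 0.693) and PKM at 0.15 ± 0.06 (adjusted p = 0.144), neither passing. PFKM, the muscle phosphofructokinase, fell by 0.29 ± 0.08, and ENO3, the muscle enolase, by 0.42 ± 0.13. PFKM did not pass without any 1 of the 4 arrays (adjusted p from 0.0506 to 0.12). ENO3 did not pass without U266-HR array 1, U266-HR array 2 or U266 array 2 (adjusted p from 0.143 to 0.325). PFKL did not pass without U266-HR array 1 or U266 array 1 (adjusted p from 0.0579 to 0.0619). Without U266 array 2, the change of ENO3 was -0.27.

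Of 9 tested genes of glycogen metabolism, 4 (44.4%) rose, against 9.68% of all genes, and 0 fell by limma (1 at an unadjusted p under 0.05). Their median was 0.14. GBE1, which branches glycogen, rose by 1.24 ± 0.09, with arrays at 10.07 and 9.95 in U266-HR, against 8.81 and 8.73 in U266. PPP1R3B, which targets a phosphatase to glycogen, rose by 0.76 ± 0.10, PGM1, which links glycogen to glycolysis, by 0.56 ± 0.06, and GYS1, the glycogen synthase of muscle and most cells, by 0.52 ± 0.08. Of 59 nuclear genes of the respiratory chain, 2 rose and 5 fell, 3.39% and 8.47% against 9.68% and 8.42% of all genes, and the median was -0.08. NDUFV2, a complex I subunit, rose by 0.36 ± 0.06 and ATP5F1D, a subunit of ATP synthase, by 0.33 ± 0.07. NDUFA9, another complex I subunit, fell by 0.32 ± 0.06. ATP5F1D did not pass without U266 array 1 (adjusted p = 0.0535). With 1 array left out, the count of falls was 1 and 2 without U266-HR array 1 or 2, and 1 and 1 without U266 array 1 or 2. Of 24 genes of the tricarboxylic acid cycle and its shuttles, 1 rose and 6 fell, 4.17% and 25% against the same shares of all genes, with a median of -0.17. IDH2, the mitochondrial enzyme that can run towards citrate, was at 7.74 and 7.72 in the U266-HR arrays, against 6.89 and 6.79 in the U266 arrays, and rose by 0.89 ± 0.13 (adjusted p = 0.000403). IDH3B, a subunit of the NAD-dependent enzyme, fell by 0.49 ± 0.07, IDH1, the cytosolic enzyme, by 0.38 ± 0.07, and ME1, cytosolic malic enzyme, by 0.46 ± 0.08. The falls numbered 3 and 4 without U266-HR array 1 or 2, and 3 and 3 without U266 array 1 or 2.

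**Figure D2:**
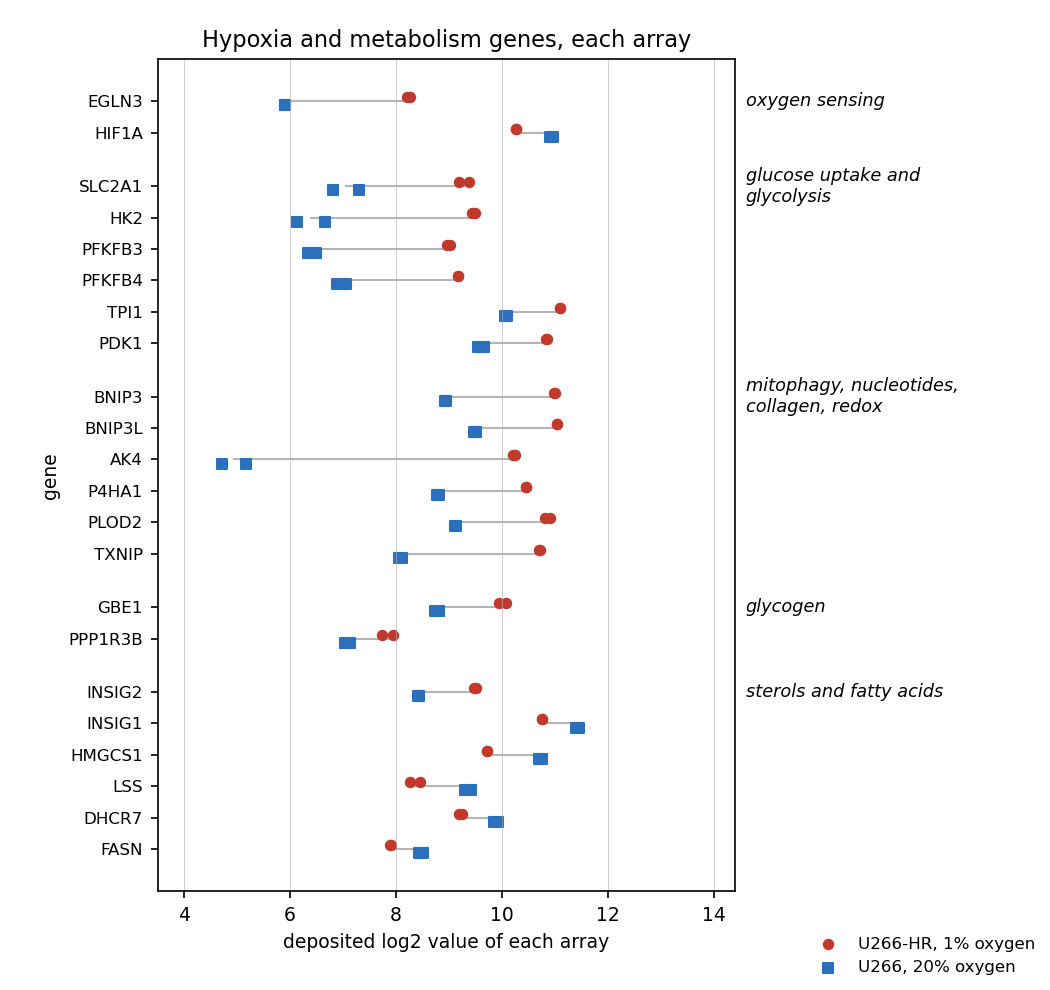
Deposited log2 value of each array for named genes of oxygen sensing and metabolism; red circles are the 2 U266-HR arrays at 1% oxygen, blue squares the 2 U266 arrays at 20% oxygen, and a grey line joins the group means. HIF1A and 5 of the 6 sterol and fatty acid genes lie lower in U266-HR; INSIG2 and the other genes lie higher.

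Genes of cholesterol synthesis fell. Of 23 tested genes, 14 fell and 1 rose, against 8.42% and 9.68% of all genes, with a median of -0.39. The count of falls was 10 to 11 with 1 array left out. HMGCS1, which makes the precursor of mevalonate, was at 9.73 and 9.72 in the U266-HR arrays, against 10.76 and 10.70 in the U266 arrays. LSS, which closes the sterol rings, was at 8.26 and 8.45 in the U266-HR arrays, against 9.41 and 9.31 in the U266 arrays, and fell by 1.00 ± 0.10 (adjusted p = 1.27e-05). DHCR7, the last step of synthesis, fell by 0.67 ± 0.08, CYP51A1, a demethylase that needs oxygen, by 0.58 ± 0.08, and NPC1, which exports cholesterol from lysosomes, by 0.64 ± 0.07. The INSIG genes, whose proteins hold the sterol sensor in the endoplasmic reticulum, moved in opposite directions. INSIG2, also a HIF target, was at 9.50 and 9.47 in the U266-HR arrays, against 8.43 and 8.42 in the U266 arrays, and rose by 1.06 ± 0.08 (adjusted p = 1.39e-06). INSIG1, a target of the sterol-regulated factors, was at 10.76 and 10.76 in the U266-HR arrays, against 11.45 and 11.40 in the U266 arrays, and fell by 0.66 ± 0.06 (adjusted p = 9.73e-06). The other 3 lines had a median of -0.26 over the same genes. The effect in U266 was below their mean for 4 genes and above it for 1, against 9.67% and 15% of all genes.

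Of 24 genes of fatty acid synthesis and storage, 3 (12.5%) rose and 8 (33.3%) fell, against 9.68% and 8.42% of all genes. HILPDA, a HIF target that protects lipid droplets, was at 8.08 and 7.96 in the U266-HR arrays, against 6.89 and 6.92 in the U266 arrays, and rose by 1.11 ± 0.09 (adjusted p = 1.11e-06). ACSS2, which turns acetate into acetyl-CoA, rose by 0.67 ± 0.12. FASN, fatty acid synthase, fell by 0.57 ± 0.08, ACACA, acetyl-CoA carboxylase, by 0.44 ± 0.05, and ACSL4, which activates arachidonate, by 0.69 ± 0.07. The falls numbered 4 and 6 without U266-HR array 1 or 2, and 3 and 6 without U266 array 1 or 2. Of 16 genes of fatty acid oxidation, 0 rose by limma (1 at an unadjusted p under 0.05) and 3 (18.8%) fell. PPARGC1A, a coactivator of mitochondrial genes, was at 6.72 and 6.90 in the U266-HR arrays, against 7.72 and 7.72 in the U266 arrays, and fell by 0.91 ± 0.15 (adjusted p = 0.000871). CPT1A, which brings fatty acids into mitochondria, fell by 0.40 ± 0.08. ETFA, an electron carrier, fell by 0.19 ± 0.06. ETFA did not pass without any 1 of the 4 arrays (adjusted p from 0.0669 to 0.206).

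Interferon response genes fell broadly, with a few rises among them. Of 59 tested genes, 32 fell and 4 rose, against 8.42% and 9.68% of all genes, and the median was -0.36. The falls numbered 21 and 26 without U266-HR array 1 or 2, and 26 and 24 without U266 array 1 or 2. MX1, a GTPase that blocks viruses, was at 7.67 and 7.60 in the U266-HR arrays, against 9.39 and 9.42 in the U266 arrays, and fell by 1.77 ± 0.07 (adjusted p = 3.28e-09). IFIT1, which binds foreign RNA, was at 4.66 and 4.88 in the U266-HR arrays, against 6.86 and 6.66 in the U266 arrays, and fell by 1.99 ± 0.17 (adjusted p = 3.31e-06). IFIT3, its partner, was at 5.89 and 5.76 in U266-HR, against 7.72 and 7.55 in U266. Both IFIT genes were under the filter in U266-HR and above it in U266. IFI44 fell by 1.34 ± 0.10, XAF1, a proapoptotic interferon gene, by 1.14 ± 0.10, and PARP14, an ADP-ribosyltransferase, by 0.98 ± 0.07. The genes that rose were IDO1, EPSTI1, MX2 and TNFSF10. EPSTI1 was at 5.87 and 6.19 in the U266-HR arrays, against 4.57 and 4.64 in the U266 arrays, a rise of 1.43 ± 0.13 (adjusted p = 5.08e-06), and so stayed under the filter in U266-HR. MX2, which lies next to MX1 on chromosome 21, was at 9.82 and 9.80 in the U266-HR arrays, against 8.93 and 8.97 in the U266 arrays, and rose by 0.86 ± 0.09 (adjusted p = 2.49e-05). TNFSF10, the death ligand TRAIL, was at 7.36 and 7.27 in the U266-HR arrays, against 6.47 and 6.51 in the U266 arrays, and rose by 0.83 ± 0.11 (adjusted p = 0.000208). MX1 and MX2 thus moved in opposite directions.

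Factors activated by interferon bind elements of the form GAAANNGAAA. Promoter windows of MX1 and IFIT1, which fell, and of EPSTI1, which rose, are shown to set genes of opposite direction side by side. The RefSeq windows (GRCh38.p14) are the first of 3 of MX1 (chr21:41420308-41420607, plus strand), and the only ones of IFIT1 (chr10:89392373-89392672, plus strand) and EPSTI1 (chr13:42992192-42992491, minus strand), each read on the strand of the gene. Capitals mark matches to GAAANNGAAA on either strand, overlapping matches included. MX1 held 1, IFIT1 2 and EPSTI1 1.
MX1: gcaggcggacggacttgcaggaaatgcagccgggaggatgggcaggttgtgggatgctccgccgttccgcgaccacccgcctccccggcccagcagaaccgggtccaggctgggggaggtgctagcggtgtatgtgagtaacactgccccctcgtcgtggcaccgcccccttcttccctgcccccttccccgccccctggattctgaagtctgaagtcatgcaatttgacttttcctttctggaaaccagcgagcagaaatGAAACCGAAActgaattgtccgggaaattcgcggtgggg
IFIT1: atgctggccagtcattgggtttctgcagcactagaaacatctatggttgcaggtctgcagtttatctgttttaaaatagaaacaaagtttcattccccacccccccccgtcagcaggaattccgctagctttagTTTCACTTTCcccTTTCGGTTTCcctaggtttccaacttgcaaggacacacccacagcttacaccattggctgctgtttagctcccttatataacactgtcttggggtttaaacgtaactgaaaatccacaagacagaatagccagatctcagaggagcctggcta
EPSTI1: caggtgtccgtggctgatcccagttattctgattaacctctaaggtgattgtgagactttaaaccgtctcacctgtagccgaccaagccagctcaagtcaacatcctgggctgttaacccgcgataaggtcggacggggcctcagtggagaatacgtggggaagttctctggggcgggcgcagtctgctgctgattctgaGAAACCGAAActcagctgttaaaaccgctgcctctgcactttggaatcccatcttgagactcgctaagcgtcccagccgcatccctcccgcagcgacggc
Of 31 windows of the list genes that fell, 22 (71.0%) held this element, as did 13 of 21 windows (61.9%) of the list genes that did not pass, against 3.57% of all RefSeq windows and 2.95% of those of genes tested. The element was thus found in genes of the list whether they fell, rose or did not pass.

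Genes that carry the interferon signal moved both ways. Of 24 tested genes, 4 (16.7%) rose and 5 (20.8%) fell, against 9.68% and 8.42% of all genes. TLR7, an endosomal RNA sensor, rose by 0.74 ± 0.11 with all 4 arrays under the filter, and IKBKE, a kinase of the interferon pathway, by 0.50 ± 0.09. MAVS, the adaptor of the cytosolic RNA sensors, was at 7.59 and 7.60 in the U266-HR arrays, against 8.19 and 8.09 in the U266 arrays, and fell by 0.54 ± 0.07 (adjusted p = 0.000115); its gene lies in the lowered stretch of chromosome 20. IFNLR1, the receptor chain for lambda interferons, fell by 0.61 ± 0.11, JAK2, a receptor kinase, by 0.48 ± 0.10, and USP18, a feedback inhibitor, by 0.75 ± 0.17. JAK2 and USP18 did not pass without U266-HR array 1 or U266 array 1 (adjusted p from 0.0501 to 0.0609). JAK1 rose by 0.28 ± 0.06. The falls of this list numbered 2 and 4 without U266-HR array 1 or 2, and 2 and 5 without U266 array 1 or 2. Of 15 genes of tryptophan and kynurenine metabolism, 4 rose and 1 fell, or 2 and 2 rose without U266-HR array 1 or 2, and 3 and 2 without U266 array 1 or 2. The 4 rises were 26.7% of this list and the fall 6.67%, against the same shares of all genes. Beside IDO1, AFMID, the next enzyme of the pathway, rose by 0.46 ± 0.08. KMO, which acts on kynurenine, was under the filter in all 4 arrays, at 3.72 and 3.94 in U266-HR, against 4.09 and 4.45 in U266, and fell by 0.44 ± 0.11. KMO did not pass without U266-HR array 1 or U266 array 2 (adjusted p from 0.118 to 0.124). Without U266 array 2, the change of KMO was -0.26. Across the interferon response list, the effect in U266 was below the mean effect of the other 3 lines for 30 genes and above it for 8, against 9.67% and 15% of all genes; the median effect in those lines was -0.06.

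MHC class II genes, through which B cells present antigen, rose. Of 12 tested genes, 7 rose and 0 fell by limma (0 at an unadjusted p under 0.05), against 9.68% and 8.42% of all genes. The rises numbered 5 and 6 without U266-HR array 1 or 2, and 6 and 5 without U266 array 1 or 2. The median was 0.41 against -0.22 in the other 3 lines. HLA-DRB5 was at 10.16 and 10.14 in the U266-HR arrays, against 9.41 and 9.33 in the U266 arrays, HLA-DPB1 at 10.31 and 10.39 in U266-HR, against 9.95 and 9.86 in U266, and HLA-DPA1 at 11.54 and 11.54 in U266-HR, against 11.03 and 10.92 in U266. All 3 chains were higher in both U266-HR arrays. CTSS, the protease that frees the peptide groove, rose by 0.97 ± 0.12, HLA-DMB, which loads peptides, by 0.48 ± 0.10, and IFI30, a thiol reductase of the same compartment, by 0.26 ± 0.06. IFI30 did not pass without U266-HR array 1 or U266 array 2 (adjusted p from 0.0594 to 0.0706). CIITA, the master activator of these genes, was at 0.15 ± 0.08 and did not pass (adjusted p = 0.199). The effect in U266 exceeded that of the other 3 lines for 8 of the 12 genes and was below it for 0 by limma (0 at an unadjusted p under 0.05). That test called 15% of all genes higher and 9.67% lower. Probe sets of MHC genes may share probes between near-identical genes and alleles, so the value of a chain can hold signal of another. Of 15 genes of class I presentation, 3 rose and 0 fell by limma (1 at an unadjusted p under 0.05), or 2 and 2 rose without U266-HR array 1 or 2, and 3 and 1 without U266 array 1 or 2. The 3 rises were 20% of the class I list, against 9.68% of all genes. PSMB9 rose by 0.42 ± 0.06, PSMB8 by 0.47 ± 0.11 and TAPBP by 0.23 ± 0.06. PSMB8 and PSMB9 are immunoproteasome subunits, and TAPBP loads peptides. TAPBP did not pass without U266-HR array 1, U266-HR array 2 or U266 array 2 (adjusted p from 0.0707 to 0.193). PSMB8 did not pass without U266 array 2 (adjusted p = 0.0828).

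**Figure D3:**
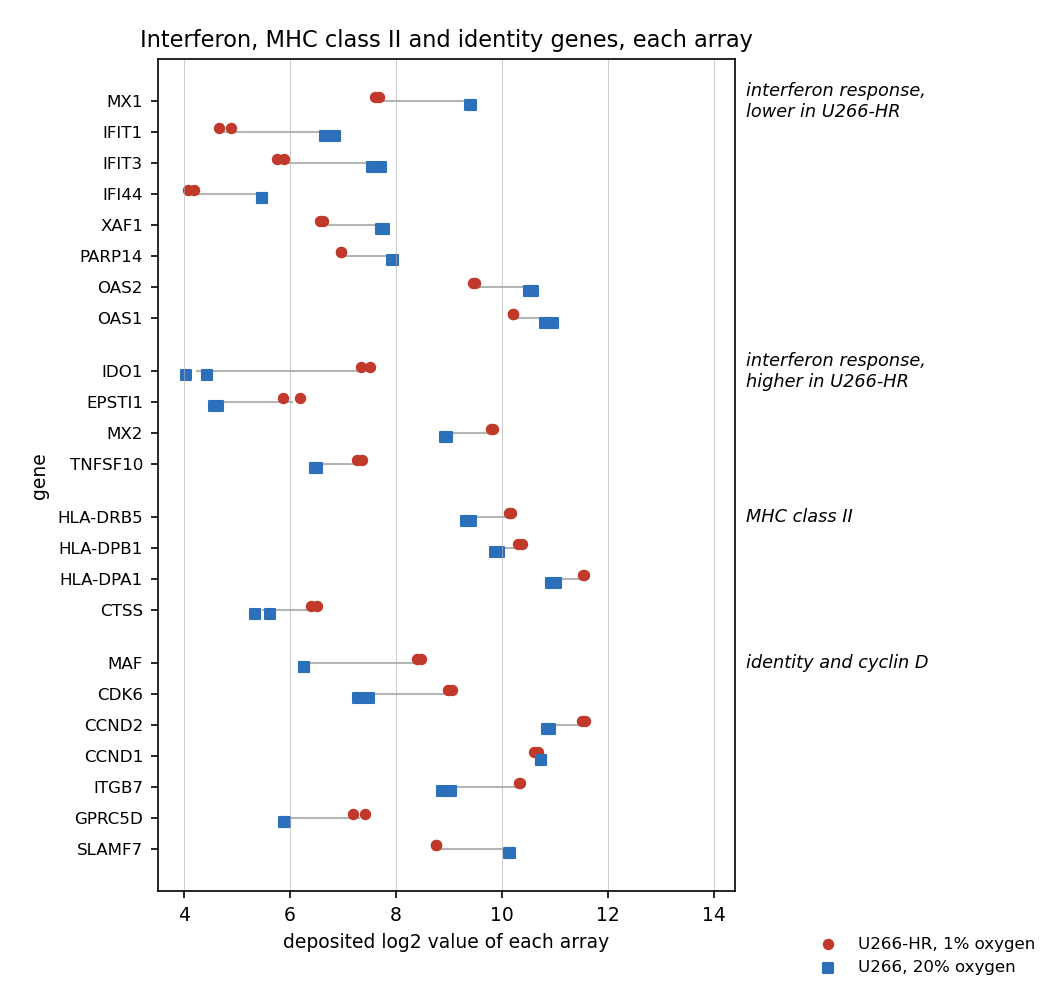
Deposited log2 value of each array for interferon, MHC class II and identity genes; red circles are the 2 U266-HR arrays, blue squares the 2 U266 arrays, and a grey line joins the group means. Most interferon genes shown lie lower in U266-HR, whereas IDO1, EPSTI1, MX2, TNFSF10 and the MHC class II genes lie higher; CCND1 is nearly level.

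Genes of DNA replication rose by small amounts. Of 46 tested genes of replication and nucleotide supply, 29 rose and 0 fell by limma (2 at an unadjusted p under 0.05), against 9.68% and 8.42% of all genes, with a median of 0.31. The rises numbered 20 and 19 without U266-HR array 1 or 2, and 23 and 19 without U266 array 1 or 2. TK1, which salvages thymidine in S phase, was at 9.41 and 9.47 in the U266-HR arrays, against 8.66 and 8.73 in the U266 arrays, and rose by 0.74 ± 0.08 (adjusted p = 1.38e-05). MCM7 was at 9.80 and 9.87 in the U266-HR arrays, against 9.31 and 9.22 in the U266 arrays. MCM2, like MCM7 a subunit of the replicative helicase, changed by 0.47 ± 0.06 (adjusted p = 7.00e-05). MCM5 rose by 0.50 ± 0.06, MCM10, which loads the polymerase, by 0.46 ± 0.06, and RFC3, a subunit of the clamp loader, by 0.54 ± 0.06. In the other 3 lines the median over these genes was -0.21. The effect in U266 exceeded theirs for 37 of 46 genes and was below it for 0 by limma (0 at an unadjusted p under 0.05), against 15% and 9.67% of all genes. Of 38 mitosis genes, 11 (28.9%) rose, against 9.68% of all genes, and 0 fell by limma (1 at an unadjusted p under 0.05). Their median was 0.20. The rises numbered 8 and 4 without U266-HR array 1 or 2, and 8 and 3 without U266 array 1 or 2. BUB1, a spindle checkpoint kinase, rose by 0.42 ± 0.07, CDCA3 by 0.40 ± 0.09 and NDC80, a kinetochore protein, by 0.35 ± 0.08. AURKA, a spindle kinase, was at 9.94 and 9.99 in U266-HR, against 9.60 and 9.55 in U266. AURKA did not pass without U266-HR array 2 or U266 array 2 (adjusted p from 0.0569 to 0.063). Here too the effect in U266 exceeded that in the other 3 lines, for 30 of 38 genes, and the median effect in those lines was -0.19. In bulk RNA, more cells in a phase of the cycle and more RNA per cell cannot be told apart.

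Histone genes rose as well. Of 55 tested genes, 23 rose and 1 fell, against 9.68% and 8.42% of all genes, with a median of 0.27, and the rises numbered 16 and 13 without U266-HR array 1 or 2, and 15 and 17 without U266 array 1 or 2. H3C12 was at 8.84 and 8.88 in the U266-HR arrays, against 7.08 and 7.24 in the U266 arrays, and rose by 1.70 ± 0.15 (adjusted p = 3.31e-06). H2AC4 rose by 0.77 ± 0.07, H1-3, a linker histone, by 0.72 ± 0.12, and H1-4, the most abundant of those named, by 0.38 ± 0.06. H2AC8 fell by 0.66 ± 0.16, with arrays under the filter at 4.42 and 4.13 in U266-HR, against 4.87 and 5.01 in U266. H2AC8 did not pass without U266-HR array 2 or U266 array 2 (adjusted p from 0.088 to 0.117). Of 41 histone genes of the clusters on chromosome 6, 18 rose and 1 fell, with a median of 0.30. Histone genes are near-identical copies, so their probe sets may share signal. H4C14 and H4C15 had the same change, 0.2567, and the same change with 1 array left out, yet each was counted as a rise. Few ribosome genes changed. Of 38 genes of the MYC network and ribosome biogenesis, 3 rose and 0 fell by limma (4 at an unadjusted p under 0.05), with a median of -0.02; 2 fell without U266 array 2. MYC itself was at 7.19 and 7.28 in the U266-HR arrays, against 6.67 and 6.71 in the U266 arrays, a rise of 0.55 ± 0.06 (adjusted p = 2.51e-05). MXI1, a MYC antagonist and HIF target, rose by 0.82 ± 0.09. The 3 rises were 7.89% of that list, against 9.68% of all genes. Of 63 ribosomal protein genes, 1 (1.59%) rose and 2 (3.17%) fell, smaller shares than among all genes. RPL7L1 fell by 0.59 ± 0.06, with arrays at 9.94 and 9.93 in U266-HR, against 10.53 and 10.52 in U266; RPL22L1 fell by 0.37 ± 0.11, and RPL39L rose by 0.36 ± 0.10. RPL22L1 and RPL39L did not pass without any 1 of the 4 arrays (adjusted p from 0.0597 to 0.26).

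**Figure D4:**
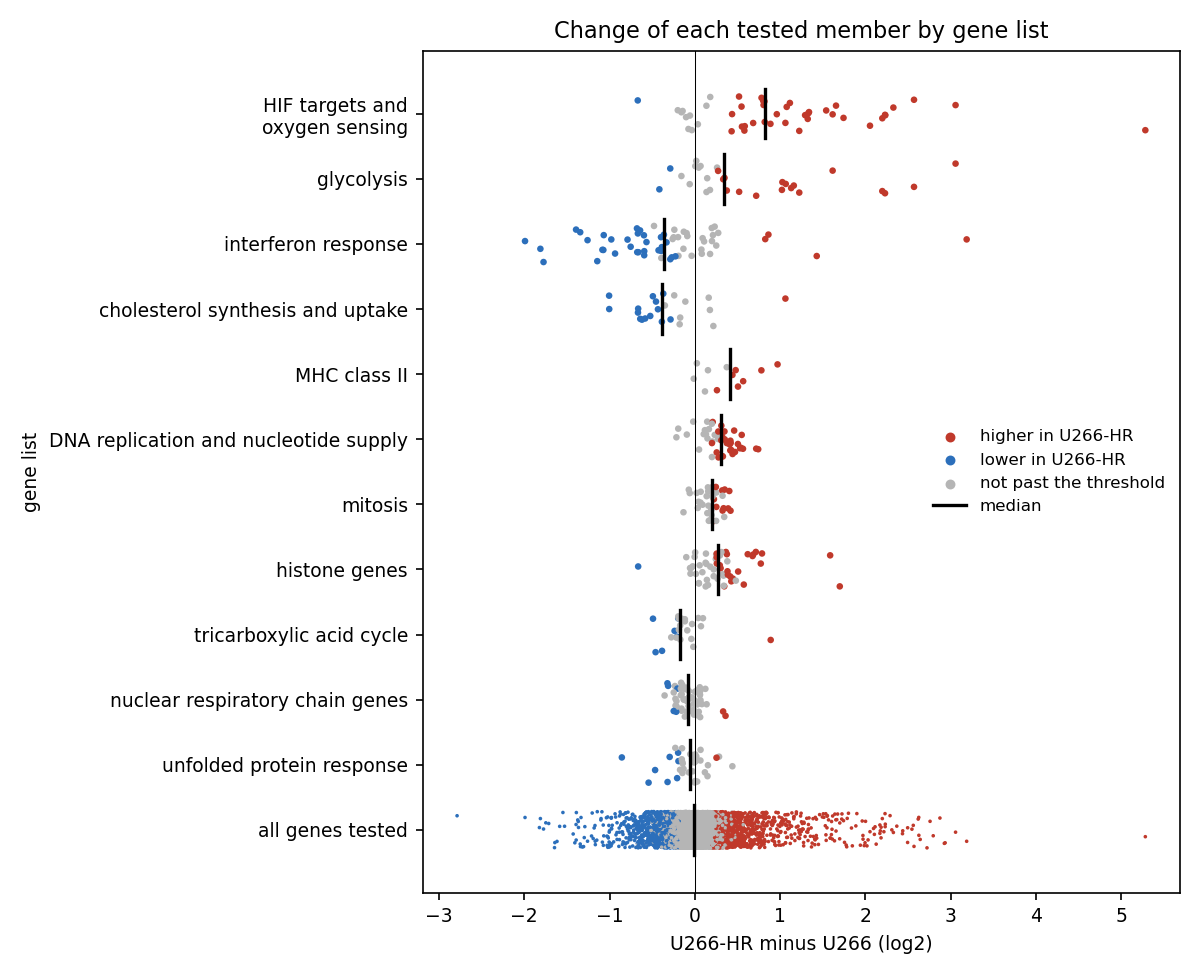
Change of every tested member (U266-HR minus U266, log2) in 11 gene lists and in all genes tested; each point is a gene, red if called higher, blue if called lower, grey if it did not pass, and the black bar is the median. HIF targets (median 0.82) lie furthest to the right, and the medians of cholesterol (-0.39) and interferon response genes (-0.36) furthest to the left.

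Genes that mark subtypes of myeloma rose or did not pass. MAF, a transcription factor that translocations activate in other myelomas, was at 8.47 and 8.40 in the U266-HR arrays, against 6.27 and 6.26 in the U266 arrays, and rose by 2.17 ± 0.11 (adjusted p = 2.38e-08). The U266 arrays thus lay at the filter level of 6.27. For scale, MAF averaged 10.20 in RPMI8226-HR and 10.29 in RPMI8226, and 10.23 in KMS-11-HR and 10.14 in KMS-11. ITGB7, an integrin that MAF is known to induce in myeloma, was at 10.35 and 10.32 in the U266-HR arrays, against 9.04 and 8.87 in the U266 arrays, and rose by 1.38 ± 0.11 (adjusted p = 1.52e-06). CCND2, a cyclin that is also a target of MAF, was at 11.56 and 11.52 in the U266-HR arrays, against 10.91 and 10.85 in the U266 arrays, and rose by 0.66 ± 0.07 (adjusted p = 1.06e-05). CDK6, the kinase partner of D cyclins, was at 8.98 and 9.07 in U266-HR, against 7.28 and 7.49 in U266, a rise of 1.64 ± 0.07. RB1, the protein this kinase inactivates, rose by 0.45 ± 0.10. CCND1, CCND3, NSD2 and FGFR3 did not pass, with changes of -0.10, 0.16, -0.03 and 0.03. Of the 15 tested genes of this list, 5 (33.3%) rose, against 9.68% of all genes, and 0 fell by limma (0 at an unadjusted p under 0.05). For MAF, the effect in U266 differed from the mean effect of the other 3 lines by 2.17 ± 0.13 (limma adjusted p = 1.60e-07), and for CDK6 by 1.63 ± 0.09.

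Surface targets of myeloma treatment changed singly and not as a group. GPRC5D, an orphan receptor of plasma cells, was at 7.41 and 7.19 in the U266-HR arrays, against 5.90 and 5.89 in the U266 arrays, and rose by 1.41 ± 0.13 (adjusted p = 7.90e-06). SLAMF7, the target of elotuzumab, was at 8.75 and 8.75 in the U266-HR arrays, against 10.13 and 10.15 in the U266 arrays, and fell by 1.39 ± 0.13 (adjusted p = 7.90e-06). NCAM1, also known as CD56, was at 6.36 and 6.57 in U266-HR, against 7.67 and 7.59 in U266, and fell by 1.17 ± 0.11. TNFRSF17 (BCMA) was at -0.28 ± 0.10 (adjusted p = 0.0844), SDC1 (CD138) at -0.19 ± 0.09 (adjusted p = 0.202) and CD38 at -0.24 ± 0.12 (adjusted p = 0.209); none of these 3 passed. Of the 18 targets tested, 3 (16.7%) rose and 2 (11.1%) fell, against 9.68% and 8.42% of all genes. Of 23 plasma cell genes, 5 (21.7%) rose and 3 (13%) fell, with a median of 0.02. IRF4, on which myeloma cells depend, rose by 0.34 ± 0.06, and MZB1, a chaperone of antibody assembly, by 0.41 ± 0.07. FKBP11, a chaperone of the secretory pathway, fell by 0.53 ± 0.06, and ITGA4, an integrin that binds stroma, was at 10.16 and 10.12 in U266-HR, against 10.59 and 10.56 in U266. Of 25 B cell genes, 8 (32%) rose and 1 (4%) fell, with a median of 0.20. BLNK, an adaptor of the B cell receptor, was at 6.71 and 6.59 in the U266-HR arrays, against 5.48 and 5.65 in the U266 arrays, and rose by 1.09 ± 0.09. BLK rose by 0.99 ± 0.10 and LYN by 0.68 ± 0.08; both are kinases of that receptor. CD80, a costimulator, rose by 1.07 ± 0.11, BCL6, a germinal centre repressor, by 0.83 ± 0.14, and PTPRC, the phosphatase CD45, by 0.53 ± 0.09. CD79A, a signalling chain of the B cell receptor, fell by 0.72 ± 0.10. Of 5 B cell markers, PAX5, MS4A1 and CD22 were under the filter in all 4 arrays. CD79B was above it, with a mean of 7.57 in U266-HR and 7.71 in U266. BACH2 had a mean above it only in U266-HR, at 6.43.

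Of 35 adhesion genes, 6 rose and 4 fell, 17.1% and 11.4% against 9.68% and 8.42% of all genes. CD44, a hyaluronan receptor, rose by 0.56 ± 0.12, and PECAM1, an adhesion molecule of vessels and leukocytes, by 0.59 ± 0.09. ICAM2 fell by 0.43 ± 0.07 and LGALS3, a galectin, by 0.64 ± 0.15. LGALS3 did not pass without U266-HR array 1 or U266 array 2 (adjusted p from 0.0816 to 0.112). Without U266 array 2, the change of LGALS3 was -0.41. THY1, a surface protein of stromal cells, neurons and some lymphocytes, was at 9.72 and 9.78 in the U266-HR arrays, against 7.34 and 7.43 in the U266 arrays, and rose by 2.37 ± 0.09 (adjusted p = 1.46e-09). THY1 and PECAM1 were the only members called among 10 tested stromal and epithelial markers. Of the 6 fixed markers, COL1A1, a collagen chain, lay above the filter, at 7.24 and 7.35 in U266-HR, against 7.10 and 7.14 in U266, and changed by 0.17 ± 0.09 (adjusted p = 0.246). COL3A1, DCN, PDGFRB, EPCAM and KRT19 lay under the filter in all 4 arrays, and the mean level of the 6 fixed markers was nearly the same in both groups, with array means of 5.55 and 5.45 in U266-HR, against 5.49 and 5.52 in U266. Of the other marker lists, 0 of 2 tested myeloid and 0 of 6 tested T and NK cell markers were called by limma, and 0 and 1 passed at an unadjusted p under 0.05. Of 37 genes of the actin cytoskeleton, 6 rose and 4 fell (3 and 2 without U266-HR array 1 or 2, and 2 and 2 without U266 array 1 or 2), 16.2% and 10.8% against the same shares of all genes. TAGLN2, an actin-binding protein, was at 8.66 and 8.90 in the U266-HR arrays, against 6.81 and 7.43 in the U266 arrays, and rose by 1.66 ± 0.15 (adjusted p = 4.56e-06). CNN2, a calponin, rose by 0.91 ± 0.10, and CAPG, which caps actin filaments, by 0.69 ± 0.12. Of 8 annexins, which bind membranes when calcium rises, 2 rose (1 and 1 without U266-HR array 1 or 2, and 2 and 1 without U266 array 1 or 2) and 2 fell. The 2 rises and the 2 falls were 25% of the annexins each. ANXA1 rose by 1.00 ± 0.17 and ANXA4 fell by 0.68 ± 0.09, as did ANXA6 by 0.45 ± 0.08. Of 24 collagen and matrix genes, 6 (25%) rose, the 4 hydroxylases above among them, and 2 (8.33%) fell, against the same shares of all genes. The falls were fewer without U266-HR array 1 or either U266 array. HPSE (heparanase) fell by 0.44 ± 0.08.

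Among genes of the stress pathways of the endoplasmic reticulum, falls outnumbered rises. In the unfolded protein response list 2.86% of genes rose and 22.9% fell, against 9.68% and 8.42% of all genes. Of 35 genes of the unfolded protein response, 1 rose and 8 fell, with a median of -0.05, and the falls numbered 4 and 4 without U266-HR array 1 or 2, and 4 and 5 without U266 array 1 or 2. The rise, of SYVN1, a ubiquitin ligase for misfolded proteins, did not pass without U266-HR array 1, U266 array 1 or U266 array 2. DDIT3, the proapoptotic factor CHOP, was at 7.05 and 6.93 in the U266-HR arrays, against 7.85 and 7.84 in the U266 arrays, and fell by 0.86 ± 0.06 (adjusted p = 5.19e-07). HSPA5, the main chaperone of that compartment, fell by 0.32 ± 0.07, EDEM1, which sorts misfolded proteins, by 0.47 ± 0.07, and PPP1R15A, which restores translation, by 0.54 ± 0.11. Targets of ATF4 divided, with 18.2% higher and 27.3% lower. Of 33 genes, 6 rose and 9 fell, the falls numbering 4 and 4 without U266-HR array 1 or 2, and 3 and 6 without U266 array 1 or 2. ATF5, a related factor, was at 9.82 and 9.76 in the U266-HR arrays, against 8.94 and 8.91 in the U266 arrays, and rose by 0.87 ± 0.07 (adjusted p = 2.00e-06). STC2, a secreted glycoprotein, rose by 0.78 ± 0.10, and DDIT4, an inhibitor of mTOR, by 0.68 ± 0.10; VLDLR, VEGFA, STC2 and DDIT4 also stand in the HIF list. SLC7A11, the cystine transporter, was at 9.33 and 9.35 in the U266-HR arrays, against 10.20 and 10.15 in the U266 arrays, and fell by 0.83 ± 0.13 (adjusted p = 0.000484). TRIB3, which restrains ATF4, fell by 0.65 ± 0.09 and AARS1, an aminoacyl tRNA synthetase, by 0.28 ± 0.06. AARS1 did not pass without U266 array 1 (adjusted p = 0.0537). Of 25 NRF2 targets, 1 (4%) rose and 5 (20%) fell, against 9.68% and 8.42% of all genes, with a median of -0.07. HMOX1, which degrades heme, was at 9.75 and 9.71 in the U266-HR arrays, against 8.99 and 8.92 in the U266 arrays, and rose by 0.77 ± 0.13 (adjusted p = 0.000941); the mean rise in the other 3 lines was larger, the difference being -0.61 ± 0.15 (limma adjusted p = 0.0093). SRXN1, which repairs oxidised peroxiredoxins, fell by 0.66 ± 0.08, and BACH1, a repressor of HMOX1, by 0.38 ± 0.08.

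Of 32 proteasome genes, 1 rose and 4 fell (3 and 1 without U266-HR array 1 or 2, and 2 and 3 without U266 array 1 or 2), with a median of -0.09. The rise, of the subunit gene PSMA7, did not pass without any 1 of the 4 arrays. With all arrays, 3.12% of the list rose and 12.5% fell, against 9.68% and 8.42% of all genes. PSMB7 was at 11.13 and 11.11 in U266-HR, against 11.58 and 11.52 in U266, and fell by 0.43 ± 0.05 (adjusted p = 0.000112). PSMB6 fell by 0.30 ± 0.06. Both are catalytic subunits, and PSMB5, which bortezomib binds, fell by 0.24 ± 0.06. PSMB5 did not pass without U266-HR array 1, U266-HR array 2 or U266 array 1 (adjusted p from 0.0712 to 0.172). PSMB6 did not pass without U266-HR array 2 (adjusted p = 0.0541). Of 19 heat shock genes, 2 rose and 0 fell by limma (3 at an unadjusted p under 0.05), and without 1 array the rises numbered 0 and 0 without U266-HR array 1 or 2, and 1 and 0 without U266 array 1 or 2. The 2 rises were 10.5% of the heat shock list, near the share of all genes. HSPA4L was at 0.29 ± 0.07 and HSPB1 at 0.23 ± 0.07. HSPB1 did not pass without any 1 of the 4 arrays (adjusted p from 0.0813 to 0.25). HSPA4L did not pass without U266-HR array 1, U266-HR array 2 or U266 array 2 (adjusted p from 0.0578 to 0.0734). Among 41 genes of autophagy and the lysosome, 5 rose and 4 fell (2 and 1 without U266-HR array 1 or 2, and 1 and 2 without U266 array 1 or 2). The 5 rises and 4 falls, 12.2% and 9.76%, were near the shares of all genes. Beside LGMN, the proteases CTSB and TPP1 rose, by 0.62 ± 0.13 and 0.31 ± 0.06. SQSTM1, the autophagy adaptor p62, was at 10.54 and 10.51 in the U266-HR arrays, against 11.09 and 11.04 in the U266 arrays, and fell by 0.54 ± 0.07 (adjusted p = 0.000148). Of 13 transporters linked to drug efflux, 3 rose and 2 fell (1 and 1 without U266-HR array 1 or 2, and 2 and 1 without U266 array 1 or 2). ABCC1, a multidrug exporter, was at 8.09 and 8.03 in the U266-HR arrays, against 7.60 and 7.51 in the U266 arrays, and rose by 0.51 ± 0.07 (adjusted p = 0.000164), ABCB6 by 0.56 ± 0.11 and ABCA2 by 0.57 ± 0.11. ABCA3, a lipid transporter, fell by 0.85 ± 0.06. Rises were 23.1% of the transporters and falls 15.4%. ABCC5 fell by 0.20 ± 0.06. ABCC5 did not pass without any 1 of the 4 arrays (adjusted p from 0.06 to 0.214).

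Among regulators of cell death, PMAIP1 stood out. PMAIP1, the BH3-only protein NOXA that neutralises MCL1, was at 9.23 and 9.27 in the U266-HR arrays, against 6.86 and 6.65 in the U266 arrays, and rose by 2.49 ± 0.08 (5.63-fold, adjusted p = 3.97e-10). Its effect in U266 exceeded the mean effect of the other 3 lines by 2.69 ± 0.09 (limma adjusted p = 1.71e-09). BMF, another BH3-only protein, was at 7.72 and 7.72 in the U266-HR arrays, against 6.88 and 6.89 in the U266 arrays, and rose by 0.84 ± 0.07. BCL2L1, the survival protein BCL-XL, was at 11.09 and 11.05 in the U266-HR arrays, against 10.66 and 10.60 in the U266 arrays, and rose by 0.44 ± 0.07; its gene lies on the raised arm of chromosome 20. BAK1, an effector of cell death, fell by 0.31 ± 0.09. BAK1 did not pass without U266-HR array 1 or U266 array 1 (adjusted p from 0.202 to 0.266). Without U266 array 1, the change of BAK1 was -0.19. MCL1 and BCL2 did not pass, at -0.06 ± 0.06 (adjusted p = 0.629) and 0.09 ± 0.07 (adjusted p = 0.442). Of 15 genes of the BCL2 family, 3 (20%) rose and 1 (6.67%) fell, against 9.68% and 8.42% of all genes. PMAIP1 is also a target of p53, but that list as a whole was level, with 3 of 23 genes higher, 4 lower (1 and 1 without U266-HR array 1 or 2, and 2 and 2 without U266 array 1 or 2) and a median of -0.00. The p53 list thus had 13% of genes higher and 17.4% lower. DDB2, a DNA repair protein, rose by 0.30 ± 0.06, and GADD45A, a damage response gene, fell by 0.49 ± 0.09. Of 23 genes grouped with TXNIP as restraints on growth, 4 rose and 2 fell (1 and 1 without U266-HR array 1 or 2, and 1 and 1 without U266 array 1 or 2). The 4 rises were 17.4% of these genes and the 2 falls 8.7%. YPEL3 rose by 0.62 ± 0.12, and KLF6, a transcription factor, was at 8.07 and 7.99 in U266-HR, against 8.77 and 8.68 in U266, a fall of 0.70 ± 0.13.

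Of 32 NF-kB factors and targets, 7 (21.9%) fell and 2 (6.25%) rose, against 8.42% and 9.68% of all genes, with a median of -0.04. The falls numbered 5 and 4 without U266-HR array 1 or 2, and 4 and 5 without U266 array 1 or 2, and the rises 1 and 2 without U266-HR array 1 or 2, and 3 and 1 without U266 array 1 or 2. CCL5, a chemokine for T cells, was at 7.68 and 7.77 in the U266-HR arrays, against 8.59 and 8.54 in the U266 arrays, and fell by 0.84 ± 0.09 (adjusted p = 2.90e-05). TNFAIP3 and NFKBIA, inhibitors that NF-kB induces, fell by 0.44 ± 0.07 and 0.36 ± 0.08. CYLD, an inhibitor that is mutated in some myelomas, rose by 0.35 ± 0.07. NFKBIA did not pass without U266-HR array 2 or U266 array 1 (adjusted p from 0.0543 to 0.0597). IL6, an autocrine growth factor of U266, fell by 0.55 ± 0.16; its U266-HR arrays were apart, at 6.88 and 7.39. IL6 did not pass without U266-HR array 1, U266 array 1 or U266 array 2 (adjusted p from 0.0909 to 0.271). Without U266-HR array 1, the change of IL6 was -0.30. IL6ST, the signalling chain of its receptor, was at 10.66 and 10.61 in the U266-HR arrays, against 10.11 and 10.02 in the U266 arrays, and rose by 0.57 ± 0.09 (adjusted p = 0.00065). PIM1, a kinase induced by that signal, rose by 0.49 ± 0.08, IL2RB by 0.61 ± 0.08 and IL4R by 0.44 ± 0.08; both are cytokine receptor chains. STAT5B fell by 0.61 ± 0.08. Among genes of IL-6 and JAK STAT signalling, 25% rose and 10.7% fell. Of the 28 genes of IL-6 and JAK STAT signalling tested, 7 rose and 3 fell (1 and 3 without U266-HR array 1 or 2, and 1 and 3 without U266 array 1 or 2). Of 33 secreted factors and cytokines, 8 rose and 4 fell (2 and 4 without U266-HR array 1 or 2, and 2 and 2 without U266 array 1 or 2). The 8 rises were 24.2% of the secreted factors and the 4 falls 12.1%. IL32, a cytokine of lymphocytes and myeloma cells, was at 9.53 and 9.47 in the U266-HR arrays, against 7.79 and 7.77 in the U266 arrays, and rose by 1.72 ± 0.10 (adjusted p = 8.33e-08). IGF1, a myeloma growth factor, rose by 0.62 ± 0.09 with all 4 arrays under the filter, and TNFSF13B (BAFF) fell by 0.54 ± 0.13. TNFSF13B did not pass without U266-HR array 1, U266 array 1 or U266 array 2 (adjusted p from 0.0622 to 0.114). MAPK feedback genes divided, with 6 of 27 higher and 5 lower (3 and 3 without U266-HR array 1 or 2, and 4 and 3 without U266 array 1 or 2). SPRY1, an inhibitor of receptor signalling, was at 7.37 and 7.55 in the U266-HR arrays, against 6.65 and 6.42 in the U266 arrays, and rose by 0.92 ± 0.09, and DUSP10, a phosphatase of stress kinases, by 0.76 ± 0.09. DUSP5, a phosphatase of ERK, fell by 0.76 ± 0.08, and ETV4, a factor downstream of ERK, by 0.70 ± 0.11. Of the MAPK feedback genes, 22.2% rose and 18.5% fell.

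Of 42 chromatin writers and erasers, 7 (16.7%) rose and 1 (2.38%) fell, against 9.68% and 8.42% of all genes. Beside KDM3A, the demethylases KDM4C and KDM4B rose by 0.58 ± 0.08 and 0.43 ± 0.07, EP300, an acetyltransferase and HIF coactivator, by 0.58 ± 0.08, and UHRF1, which maintains DNA methylation, by 0.46 ± 0.07. EZH2, the Polycomb methyltransferase, was at 9.95 and 9.99 in U266-HR, against 9.72 and 9.74 in U266, a rise of 0.24 ± 0.05. JMJD1C, a relative of KDM3A, was the member that fell, by 0.34 ± 0.08. JMJD1C did not pass without U266-HR array 2, U266 array 1 or U266 array 2 (adjusted p from 0.0533 to 0.111). EZH2 did not pass without U266-HR array 2 or U266 array 1 (adjusted p from 0.0565 to 0.0676). Of 21 cancer-testis genes, which are silent in most adult tissues, 5 rose and 0 fell by limma (0 at an unadjusted p under 0.05), and without 1 array the rises numbered 4 and 2 without U266-HR array 1 or 2, and 3 and 2 without U266 array 1 or 2. Beside SSX1, MAGEB16 was at 7.97 and 8.05 in the U266-HR arrays, against 6.05 and 5.96 in the U266 arrays, and rose by 2.00 ± 0.11 (adjusted p = 5.19e-08). The 5 rises were 23.8% of the cancer-testis genes tested. SSX genes are near-identical copies and may share signal.

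Position along the chromosomes set apart a few stretches, which were chosen after their values were seen and carry no test of their own. The genes tested on chromosome 20 were divided at the widest gap between the starts of neighbouring genes, between NCOR1P1 and FRG1BP. The gap was found from the RefSeq start positions alone. Of 116 genes before the gap, from C20orf96 to NCOR1P1, 57 (49.1%) fell and 4 (3.45%) rose, with a median of -0.29. Of 240 genes after it, from FRG1BP to PCMTD2, 80 (33.3%) rose and 1 (0.417%) fell, with a median of 0.18. Over all genes, 9.68% rose and 8.42% fell. The rises after the gap numbered 51 and 50 without U266-HR array 1 or 2, and 60 and 49 without U266 array 1 or 2. Against the mean of U266, the U266-HR arrays gave medians of -0.28 and -0.31 before the gap, and of 0.18 and 0.19 after it, so both arrays showed the shift. Before the gap, 94 of 116 genes lay below 0, and after it, 203 of 240 lay above 0. Of genes named with their lists, TRIB3, SRXN1 and IDH3B also lie before the gap, and ACSS2, AURKA and PSMA7 after it. NSFL1C, a cofactor of the p97 segregase, was at 9.02 and 8.95 in the U266-HR arrays, against 9.80 and 9.71 in the U266 arrays, and RBBP9 at 7.40 and 7.43 in U266-HR, against 8.13 and 8.23 in U266. The 4 genes that rose against the trend were SMOX, JAG1, LOC613266 and ACSS1. After the gap, SULF2, an enzyme that edits heparan sulfate, was at 8.63 and 9.06 in the U266-HR arrays, against 6.42 and 6.65 in the U266 arrays, and ADA, adenosine deaminase, at 8.14 and 8.16 in U266-HR, against 6.96 and 6.68 in U266. RBM38 was the gene that fell, by 0.29 ± 0.09. RBM38 did not pass without U266-HR array 1, U266-HR array 2 or U266 array 2 (adjusted p from 0.0807 to 0.317). Without U266 array 2, the change of RBM38 was -0.18. The medians of the same stretches in the other lines were -0.18 and -0.20 in RPMI8226, 0.01 and -0.01 in KMS-11, and -0.05 and -0.07 in IM-9. By the limma test of the difference, the effect in U266 was below theirs for 44 genes before the gap and above theirs for 6. After the gap, it was above theirs for 120 genes and below theirs for 3. That test called 15% of all genes higher and 9.67% lower.

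On chromosome 21, 38 of 142 genes (26.8%) fell and 6 (4.23%) rose, with a median of -0.10. The falls numbered 18 and 23 without U266-HR array 1 or 2, and 15 and 23 without U266 array 1 or 2. The rises, 3 to 7 with 1 array left out, were 3 without U266-HR array 1 or U266 array 1. On the other autosomes, leaving out chromosome 20, and on chromosome X the share of genes that fell was between 2.64% and 13.7%, and the share that rose between 6.03% and 12.7%. LSS, MX1 and BACH1, named with their lists, lie on chromosome 21. DNA copy number was not measured, and its part in these shifts was not tested. On chromosome 19, 9 of 13 ZNF genes from ZNF429 to ZNF254 rose and 0 fell by limma (0 at an unadjusted p under 0.05), with a median of 0.66. Over all genes 9.68% rose and 8.42% fell, and over the ZNF genes outside this run 4.16% and 5.71%. The other 385 ZNF genes had 16 rises, 22 falls (12 and 12 without U266-HR array 1 or 2, and 10 and 17 without U266 array 1 or 2) and a median of -0.00. ZNF730 was at 9.60 and 9.57 in the U266-HR arrays, against 6.90 and 6.52 in the U266 arrays, ZNF729 at 7.05 and 6.92 in U266-HR, against 4.89 and 4.62 in U266, ZNF675 at 8.79 and 8.86 in U266-HR, against 6.94 and 6.65 in U266, and ZNF676 at 7.48 and 7.38 in U266-HR, against 5.34 and 5.58 in U266. In these 4 genes both U266-HR arrays stood far above both U266 arrays, whereas ZNF43 in the same run was at -0.05 ± 0.17 (adjusted p = 0.893). The run had medians of -0.42 in RPMI8226, -0.11 in KMS-11 and 0.12 in IM-9. These genes are similar copies, so their probe sets may share signal.

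**Figure D5:**
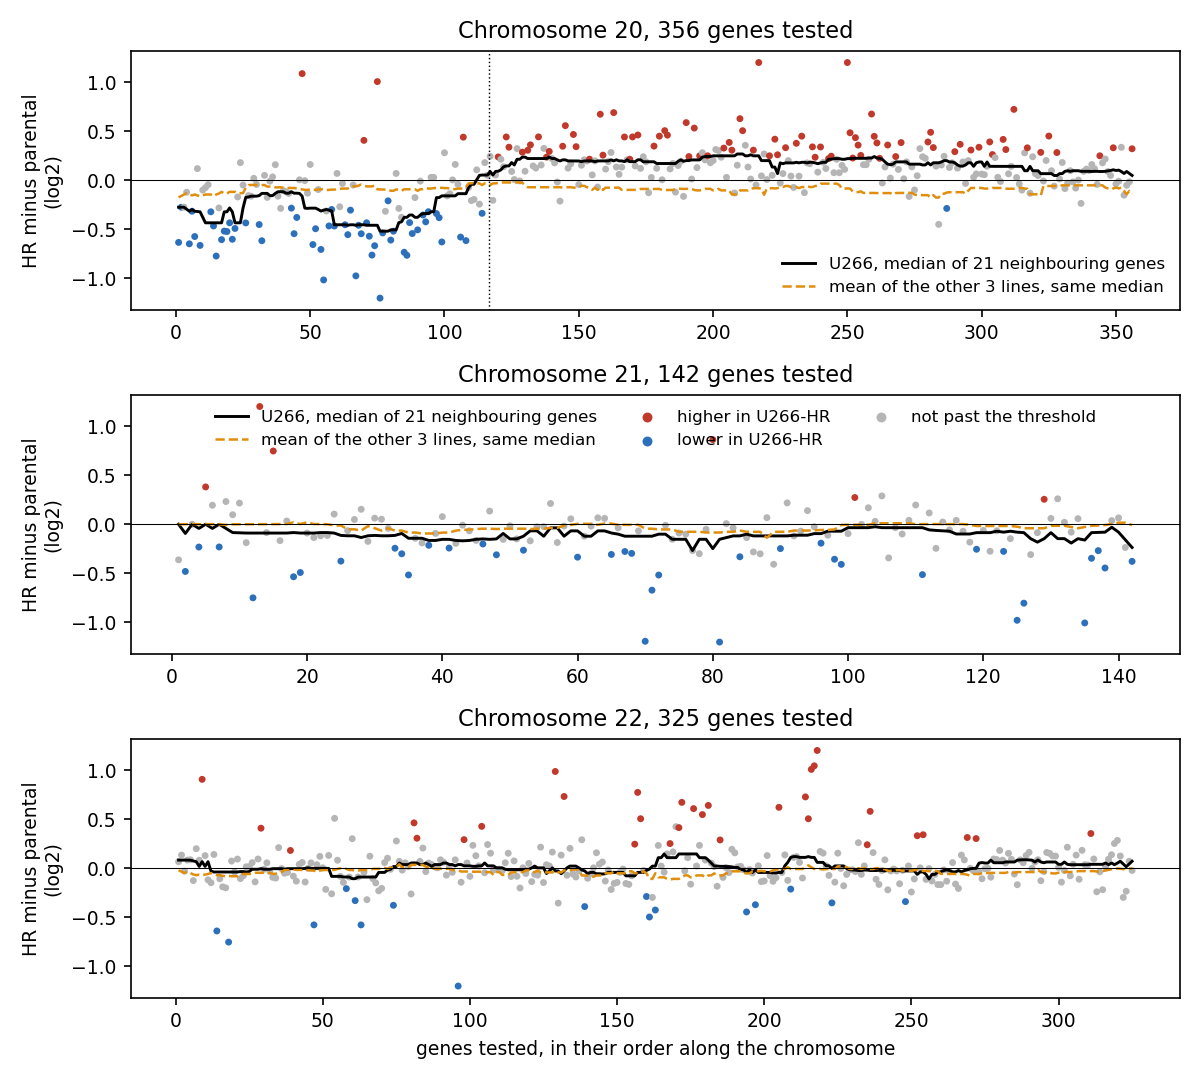
Change of each tested gene (U266-HR minus U266, log2, values beyond 1.2 drawn at 1.2) in gene order on chromosomes 20, 21 and 22; red points were called higher, blue points lower, the black line is the running median of 21 genes, the dashed line the same for the mean of the other 3 lines, and the dotted line marks the widest gap on chromosome 20. The medians are -0.29 before and 0.18 after that gap, and -0.10 on chromosome 21; chromosome 22 is drawn for comparison.

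The response of U266 was set against the mean response of RPMI8226, KMS-11 and IM-9 by a contrast in the same limma fit. The effect in U266 was higher for 1900 genes (15%) and lower for 1222 (9.67%). The lower count was 797 without U266-HR array 1 and 803 without U266 array 1. AK4 rose in every line, by 2.32 in RPMI8226, 1.03 in KMS-11 and 0.81 in IM-9, and its rise in U266 was larger by 3.89 ± 0.13 (limma adjusted p = 1.26e-09). The changes of IDO1 were 0.09 in RPMI8226, 0.09 in KMS-11 and 0.19 in IM-9, so that its rise in U266 was larger by 3.06 ± 0.13. LAPTM5 changed by -1.05 in RPMI8226, 0.08 in KMS-11 and 0.02 in IM-9. DNAJC15, a cochaperone of mitochondrial import, was at 7.70 and 7.90 in the U266-HR arrays, against 5.45 and 5.28 in the U266 arrays, and changed by -0.99 in RPMI8226, -0.23 in KMS-11 and 0.21 in IM-9; the difference was 2.77 ± 0.12. In the other direction, PSTPIP2 changed by 0.71 in RPMI8226, -0.10 in KMS-11 and -0.11 in IM-9, a difference of -2.95 ± 0.12. RGS1, a regulator of chemokine receptor signalling, was at 7.56 and 7.65 in the U266-HR arrays, against 8.56 and 8.60 in the U266 arrays, and changed by 2.50 in RPMI8226, 1.22 in KMS-11 and 0.53 in IM-9, a difference of -2.39 ± 0.29 (limma adjusted p = 6.98e-05). The change of RGS1 within U266, -0.98, did not pass without any 1 of the 4 arrays (adjusted p from 0.0603 to 0.0871). SLCO2B1, an organic anion transporter, fell by 1.17 ± 0.10 in U266 and changed by 1.82 in RPMI8226, 0.90 in KMS-11 and 0.43 in IM-9, a difference of -2.21 ± 0.12. For NDRG1 and EGLN3, the differences from the mean of those lines were 0.24 ± 0.13 (limma adjusted p = 0.203) and 0.16 ± 0.11 (limma adjusted p = 0.335); TFRC differed by -0.03 ± 0.07 (limma adjusted p = 0.783).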

How the data were processed

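Affymetrix gene arrays were read for 4 lines in 8 groups of 2 arrays, 16 in all. The authors deposited 1 log2 value per probe set, made with Affymetrix Expression Console 1.3.0 per the submitters' processing notes; the normalization method is not given in the sources used here, and array medians lay between 6.22 and 6.34. The platform annotation listed 21214 of the 33297 probe sets, 19460 with 1 gene symbol and 1754 with several; 19429 of those with 1 symbol matched RefSeq (GRCh38.p14). Only probe sets with 1 symbol were used, each of 18417 genes by its probe set of highest mean. The series' text names a later generation of the gene array than the platform annotation, whose probe set identifiers the deposited table holds. Genes above the table's median (6.27) in at least 2 of the 16 arrays were tested: 12639. Log2 differences, U266-HR minus U266, were fitted with limma 3.58.1 in R 4.3.3 over all 8 groups, which share 1 estimate of spread, and p-values were adjusted by Benjamini-Hochberg over all genes tested at a threshold of 0.05. The scripts were tested on simulated data. No spread beyond 2 arrays per group could be seen, and the number of arrays limits the precision.

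Genes were named by a rule: the 15 largest rises and falls with groups that do not overlap, the 6 largest each way at a mean of at least 10, the 8 largest differences each way from the other 3 lines, up to 6 members each way of 46 gene lists by p, and checks of the line. Members and lists were chosen with earlier results of these data known. Other named genes, among them EGLN1, ARNT, EPAS1, VHL, PDK3, SLC2A3, CIITA, MCL1, BCL2, the glycolytic isoforms, ZNF43 and the chromosome 20 examples, and the chromosome stretches, were chosen after their values were seen. Alternatives were another normalization, 2 other filters, the array number as a replicate block, array weights, a trended robust prior, the mean of all probe sets, other estimates of the spread, a comparison with the other 2 myeloma lines alone, and each U266 array left out.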

Additional observations from a re-analysis of the deposited data

Results flagged for a closer look

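Each result here is one in which the HR effect in U266 differed from the mean HR effect of RPMI8226, KMS-11 and IM-9 by the limma contrast of that difference. Over all genes, 1900 differences were higher and 1222 lower in U266. Groups of 2 arrays are too small to look for a single array far from the others.

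AK4 rose by 5.28 on the log2 scale in U266, with a difference of 3.89 ± 0.13, and IDO1 by 3.19, with a difference of 3.06 ± 0.13. ZNF730 changed by 2.87 in U266 and by -1.10 in RPMI8226, -0.11 in KMS-11 and -0.48 in IM-9, a difference of 3.44 ± 0.24. TENM3 changed by 2.92 in U266 and by -0.06 in RPMI8226, -0.12 in KMS-11 and -0.17 in IM-9, a difference of 3.04 ± 0.08. The differences were 2.86 ± 0.07 for LAPTM5, 2.77 ± 0.12 for DNAJC15, 2.76 ± 0.15 for SLA and 2.76 ± 0.08 for MUSK. In the lines other than U266, none of the 8 genes rose by more than 2.32, the change of AK4 in RPMI8226.

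Among the falls, PSTPIP2 differed by -2.95 ± 0.12. IFIT1 changed by -1.99 in U266 and by 0.76 in RPMI8226, 0.13 in KMS-11 and -0.75 in IM-9, a difference of -2.04 ± 0.20, so that IM-9 and U266 shared the sign and RPMI8226 did not. PLS3 differed by -1.72 ± 0.12, ALLC by -1.84 ± 0.15 and CGA by -1.83 ± 0.16. In these 3 genes the other lines stayed between -0.23 and 0.30. RGS1 (difference -2.39 ± 0.29) and SLCO2B1 (difference -2.21 ± 0.12) fell in U266 by 0.98 and 1.17 and changed upward in each of the other 3 lines. OR5B21, an odorant receptor gene, was at 4.61 and 4.86 in U266-HR, against 5.71 and 5.51 in U266, under the filter in both groups. It changed by -0.88 in U266 and by 0.60 in RPMI8226, 0.23 in KMS-11 and 1.82 in IM-9, a difference of -1.76 ± 0.23, with IM-9 contributing most to the mean of those lines. Its change within U266 did not pass without U266-HR array 1 or U266 array 1 (adjusted p from 0.0707 to 0.0769).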

How the results depend on the processing

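Against 1223 genes higher and 1064 lower, normalizing the arrays again by quantiles gave 1358 and 993, no filter 1165 and 934, a stricter filter 1207 and 1073, array weights 1663 and 1624, and a trended robust prior 1378 and 1213; the median of all genes moved by less than 0.1 in each. The other settings of the spread and of probe sets stayed within 1.5 times of both counts. With 1 array left out, where the lone array is assumed to vary like the other groups, 820 to 908 genes were higher and 553 to 704 lower; the fewest lower, 553, came without U266 array 1. In the comparison with the other 3 lines, 1273 to 1475 genes were then higher and 797 to 886 lower, and against the other 2 myeloma lines alone 1667 were higher and 1017 lower. With the array number as a replicate block, 1249 genes were higher and 1066 lower, and 1890 and 1265 differed from the other lines. The labels do not say whether arrays with the same number are paired. Deviations of such arrays correlated at -0.048 in U266 and at 0.0712 to 0.205 in the other lines. With 2 arrays per group these values cannot settle pairing. Of 319 genes under the naming rule, 56 to 61 lost their call with 1 array left out, 24 with no filter and 25 with the spread of the 4 U266 arrays alone, which have the fewest degrees of freedom; no setting turned a called direction. For each lost call the cause was not tested beyond the smaller number of arrays or the larger number of genes. Values under 6.27, the median of the whole table, are counted as dim here. AK4, IDO1, IFIT1 and PSTPIP2 had such values in 1 group. So had other named genes, among them SSX1, MUSK, CNIH3, DOCK10, IQGAP2, BCHE and EGLN3 in U266. The size of the change is less certain for every gene with such values.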

Other observations

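Other gene families stood out on reading the values, and as they were chosen for those values they carry no test of their own. Over all genes, 9.68% were higher and 8.42% lower, the shares to set beside each family below. Metallothioneins, small proteins that bind zinc and copper, were higher: of 13 tested, 11 rose and 0 fell by limma (0 at an unadjusted p under 0.05), with a median of 0.64 against -0.07 in the other 3 lines. MT1G was at 9.10 and 8.99 in the U266-HR arrays, against 6.80 and 7.08 in the U266 arrays, and rose by 2.10 ± 0.17. MT2A, the most widely expressed member, was at 10.73 and 10.71 in U266-HR, against 9.17 and 9.26 in U266, and MT1X at 8.94 and 8.86 in U266-HR, against 7.15 and 7.25 in U266. Both U266-HR arrays stood above both U266 arrays in each. Most of these genes lie together on chromosome 16, where 9 of 13 genes from BBS2 to NUP93 rose and 1 fell (0 without any 1 of the 4 arrays), and they are near-identical copies whose probe sets may share signal.

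All 5 APOBEC3 genes tested, of 6 on the array, rose, with a median of 1.01 against 0.10 in the other 3 lines; APOBEC3 enzymes deaminate cytidine in single-stranded DNA and restrict viruses. APOBEC3G was at 5.91 and 5.94 in the U266-HR arrays, against 4.27 and 4.44 in the U266 arrays, under the filter throughout, and rose by 1.57 ± 0.09. APOBEC3F rose by 1.04 ± 0.08, APOBEC3D by 1.01 ± 0.08, APOBEC3B by 0.73 ± 0.13 and APOBEC3C by 0.50 ± 0.06. They too are similar neighbours. All 3 TIM genes, receptors for phosphatidylserine and other ligands on immune cells, rose. HAVCR1 averaged 9.45 in the U266-HR arrays and 6.96 in the U266 arrays, and rose by 2.49 ± 0.14. HAVCR2, the checkpoint receptor TIM-3, was at 8.46 and 8.40 in U266-HR, against 6.48 and 6.45 in U266, and changed by 0.94 in RPMI8226, 0.21 in KMS-11 and 1.52 in IM-9. TIMD4 was at 7.34 and 7.23 in U266-HR, against 5.24 and 5.39 in U266.

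Of 9 DOCK genes, exchange factors for small GTPases of the cytoskeleton, 4 (44.4%) rose and 0 fell by limma (0 at an unadjusted p under 0.05). The shares of all genes were 9.68% and 8.42%. DOCK10 was at 8.08 and 8.15 in the U266-HR arrays, against 5.48 and 5.46 in the U266 arrays. DOCK4 rose by 1.94 ± 0.08 and DOCK8 by 1.06 ± 0.07. All 3 beta-like globin genes tested rose: HBE1, the embryonic chain, by 1.19 ± 0.18, HBB, the adult chain, by 1.09 ± 0.09 and HBD by 0.41 ± 0.13. HBD did not pass without any 1 of the 4 arrays (adjusted p from 0.0655 to 0.274).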
